A study of Mus musculus with 20 samples.

Results

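Accessible chromatin was compared between the intestine and the stomach of mouse embryos whose gut mesenchyme lacked Eed, through the broad peak list deposited for each organ. The intestinal list held 119181 peaks and the gastric list 116842, so 236023 of the 455620 peaks in the 4 embryonic lists belonged to the Eed knockout (KO) organs, and every peak of both lists was used. Each list pooled the reads of 2 replicate libraries (4 Eed KO ATAC-seq libraries in all), and the remaining 219597 peaks came from the control organs. ATAC-seq cuts open chromatin with a transposase, and a peak is a stretch where the cuts pile up. The Eed KO embryos were Eedfl/fl;Bapx1-cre;Rosa26mTmG and the controls Bapx1-cre;Rosa26mTmG, at E13.5. The labels give the strain of both as C57BL/6, while the study's methods describe some of the crossed lines as mixed backgrounds. Both genotypes carried the Cre and the mTmG reporter, and GFP-positive cells were sorted from dissected stomachs and intestines. Only cells with a history of Bapx1 (Nkx3-2) expression were therefore sorted, and the deletion was limited to them. Since replicates were pooled before peaks were called, presence, width and strength of a peak have no replicate error and are described without a test. RNA-seq of the same 4 groups, with 2 libraries each, gave the replicated readout.

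EED is a core subunit of Polycomb repressive complex 2 (PRC2), which places the repressive mark H3K27me3 on histone H3. The complex keeps many developmental regulators silent outside the tissue that uses them, and their promoters often stay accessible while silent. In the gut tube the mesenchyme instructs the overlying epithelium to form stomach or intestine, with Barx1 known as a stomach mesenchyme factor and Nkx2-3 as an intestinal one.

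The Eed RNA level, in CPM (a library's count of a gene relative to its scaled total), was 10.7 and 8.59 in the Eed KO intestines against 38.1 and 40.1 in the control intestines, and 11.5 and 7.40 in the Eed KO stomachs against 40.1 and 41.5 in the control stomachs. The knockout and control libraries did not overlap in either organ. The 10 mesenchyme markers (such as Pdgfra, Col1a1 and Twist1) all had a promoter peak in both Eed KO lists, as had 68.2% of protein-coding genes. The Eed KO RNA libraries held 35876989 to 36996971 gene counts, whereas read depth is not stored in peak lists, so its part in what follows was not tested.

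The sequences below are examples of the regions compared. They are GRCm38 sequence (soft-masking removed) in 300-base windows centred on a peak, or the whole peak where it was shorter, and RefSeq promoters from 250 bases before to 50 bases after the start. The first pair are organ-alone peaks, meaning that no peak of the other Eed KO organ overlapped them, near genes with unequal RNA. Of the promoters, Nkx2-3 and Barx1 were open in both organs while at Gpbar1 and Amhr2 a peak lay within 1000 bp of the start in 1 list alone. The printed Gpbar1 bases do not reach its intestinal peak, which overlapped a gastric peak outside that distance. Capitals mark matches, on either strand, to any of 8 short motifs of which none contains another. They are TAATTA (a homeodomain core), GATAA (the GATA factor core), CACTTAA (the NKX2 core), TGANTCA (bound by AP-1), GGAATG (bound by TEAD factors), GGGCGG (bound by SP factors), CCAAT (bound by NF-Y) and TATAAA (the TATA box).
Mab21l2 upstream peak, chr3:86625826-86626125, plus strand: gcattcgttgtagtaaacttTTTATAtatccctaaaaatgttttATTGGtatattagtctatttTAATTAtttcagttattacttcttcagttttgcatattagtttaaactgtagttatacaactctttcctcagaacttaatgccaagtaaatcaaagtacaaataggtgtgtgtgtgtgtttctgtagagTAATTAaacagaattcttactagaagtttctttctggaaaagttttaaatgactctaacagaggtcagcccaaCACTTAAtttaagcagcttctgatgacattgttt
Tbx5 downstream peak, chr5:119916756-119917055, plus strand: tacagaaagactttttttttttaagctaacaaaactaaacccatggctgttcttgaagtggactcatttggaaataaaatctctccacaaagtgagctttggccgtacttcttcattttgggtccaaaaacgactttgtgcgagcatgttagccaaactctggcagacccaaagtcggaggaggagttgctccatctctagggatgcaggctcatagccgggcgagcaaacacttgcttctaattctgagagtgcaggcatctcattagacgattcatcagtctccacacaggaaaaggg
Nkx2-3 promoter, chr19:43612075-43612374, plus strand: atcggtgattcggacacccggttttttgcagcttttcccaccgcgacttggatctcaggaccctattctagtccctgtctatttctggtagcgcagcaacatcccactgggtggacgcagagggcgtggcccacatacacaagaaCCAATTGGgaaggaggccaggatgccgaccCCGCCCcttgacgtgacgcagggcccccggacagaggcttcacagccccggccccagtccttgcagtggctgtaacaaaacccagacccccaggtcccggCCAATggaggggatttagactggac
Barx1 promoter, chr13:48662786-48663085, plus strand: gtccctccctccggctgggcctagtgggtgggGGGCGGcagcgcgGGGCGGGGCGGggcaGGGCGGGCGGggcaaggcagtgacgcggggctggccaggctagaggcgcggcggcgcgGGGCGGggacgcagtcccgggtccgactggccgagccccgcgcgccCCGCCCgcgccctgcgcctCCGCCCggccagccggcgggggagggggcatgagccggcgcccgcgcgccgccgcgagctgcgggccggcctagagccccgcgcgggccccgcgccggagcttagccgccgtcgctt
Gpbar1 promoter, chr1:74278350-74278649, plus strand: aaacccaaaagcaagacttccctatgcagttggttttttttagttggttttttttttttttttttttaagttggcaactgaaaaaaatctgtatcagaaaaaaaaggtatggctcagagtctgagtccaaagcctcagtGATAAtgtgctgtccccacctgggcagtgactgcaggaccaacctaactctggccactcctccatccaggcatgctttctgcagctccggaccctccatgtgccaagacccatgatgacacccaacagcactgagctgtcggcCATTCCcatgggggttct
Amhr2 promoter, chr15:102445117-102445416, plus strand: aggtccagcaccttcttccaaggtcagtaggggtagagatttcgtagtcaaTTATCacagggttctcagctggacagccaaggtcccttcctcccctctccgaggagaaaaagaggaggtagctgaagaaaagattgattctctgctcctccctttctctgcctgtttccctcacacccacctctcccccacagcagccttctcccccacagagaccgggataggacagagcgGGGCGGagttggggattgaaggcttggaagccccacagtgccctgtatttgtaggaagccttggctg
The Mab21l2 window held 5 matches, among them TAATTA (found in 5.31% of 27025 promoters) and CACTTAA (2.39%), and the Barx1 promoter held 8 matches to GGGCGG (35.9% of promoters). The Tbx5 window held none of these letters. A match describes the sequence and does not place a factor there.

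Most peaks without Eed were common to the organs. Of the intestinal peaks, 78.8% (93938) overlapped a gastric peak by at least 1 base, and of the gastric peaks 80.2% (93670) overlapped an intestinal one, leaving 25243 intestine-alone and 23172 stomach-alone peaks. In the controls the same shares were 84.0% and 75.4%. Merged into 141443 regions, 65.8% were open in both Eed KO organs, 17.8% in the intestine alone and 16.4% in the stomach alone, beside 65.7%, 12.6% and 21.6% of the merged control regions. The balance between the organs thus lay toward the stomach in the control lists and near even in the Eed KO lists, for lists of unequal length (103808 peaks in the control intestine and 115789 in the control stomach). Requiring an overlap of at least 50% of each peak lowered the Eed KO shares to 60.6% and 61.8%.

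Sharing followed peak strength, measured as the fold enrichment of reads over local background that the peak caller gave. The median fold enrichment was 3.89 for shared and 2.69 for intestine-alone peaks, and 4.05 against 2.79 for gastric peaks. Between 2 and 2.5 fold only 41.0% of intestinal and 45.6% of gastric peaks were shared, whereas at 10 fold and over 99.96% of 2305 and 99.93% of 2914 were. Organ-alone peaks were also narrower, with a median width of 270 bp against 632 bp in the intestine and 289 bp against 656 bp in the stomach. Their −log10 q, the caller's confidence, had a median of 1.96 and 2.23, against 6.91 and 7.58 for shared peaks. Most organ-alone peaks therefore had values close to the cutoffs of the peak caller.

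**Figure D1:**
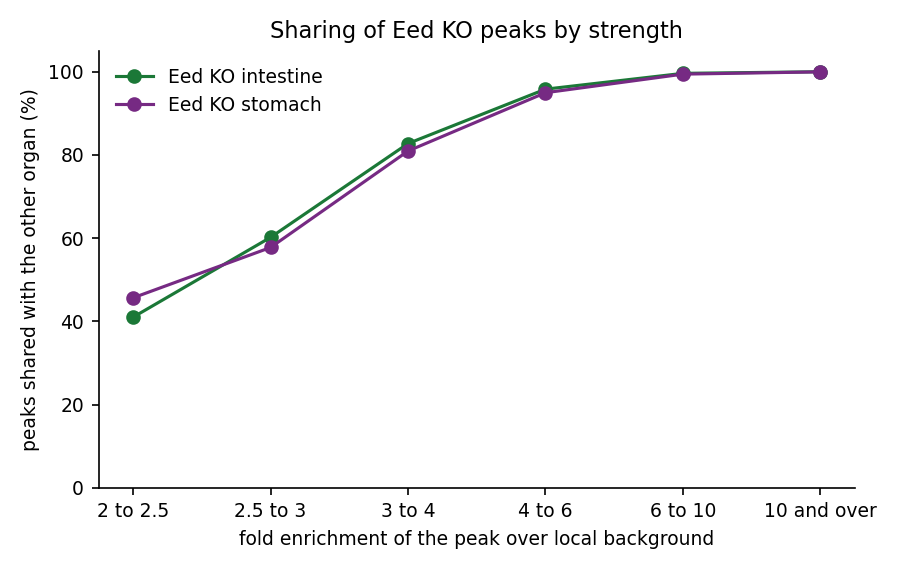
Share of Eed KO peaks that overlapped a peak of the other organ (vertical axis, percent) in classes of fold enrichment over local background (horizontal axis), for the intestinal and gastric lists, 1 pooled list each. Both lines climb from 41.0% and 45.6% in the weakest class to over 99% at 6 fold and above.

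Where both organs had a peak, its strength was close. Among 91506 peaks that paired one to one, the log2 ratio of fold enrichment (intestine over stomach) had a median of −0.05, with 5% of pairs below −0.49 and 5% above 0.39, and Spearman's rho was 0.857 across peaks, which are not replicates. Over 1.5-fold differences were found in 1.47% of pairs toward the intestine and 2.77% toward the stomach. Pairs at gene starts differed least, with 0.248% and 0.598%, and pairs in introns reached 1.80% and 3.12%.

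Shared and organ-alone peaks differed in position. Within 1000 bp of a gene start (the outermost annotated start, so alternative promoters are missed) lay 17.0% of shared but 2.87% of intestine-alone peaks, and 17.1% against 2.76% for gastric peaks. Introns held 44.2% of intestine-alone and 42.7% of stomach-alone peaks against 34.3% of shared peaks in either list. Intergenic sequence held 43.7% and 47.1% of organ-alone peaks against 39.2% and 39.1%. The median distance to the nearest gene start was 26822 bp for intestine-alone and 29432 bp for stomach-alone peaks, and 17715 and 17725 bp for shared ones. The difference in position held within a class of strength: at 3 to 4 fold, 93.8% of intestinal peaks at gene starts were shared but 81.6% of intergenic ones, and 93.0% against 78.02% of gastric ones. Over the autosomes the organ-alone shares ran from 19.0% (19) to 23.4% (14) of intestinal and from 17.6% (7) to 22.0% (14) of gastric peaks. On the X chromosome they were 14.9% of 1836 intestinal and 19.7% of 1934 gastric peaks, although the methods describe keeping autosomal reads.

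**Figure D2:**
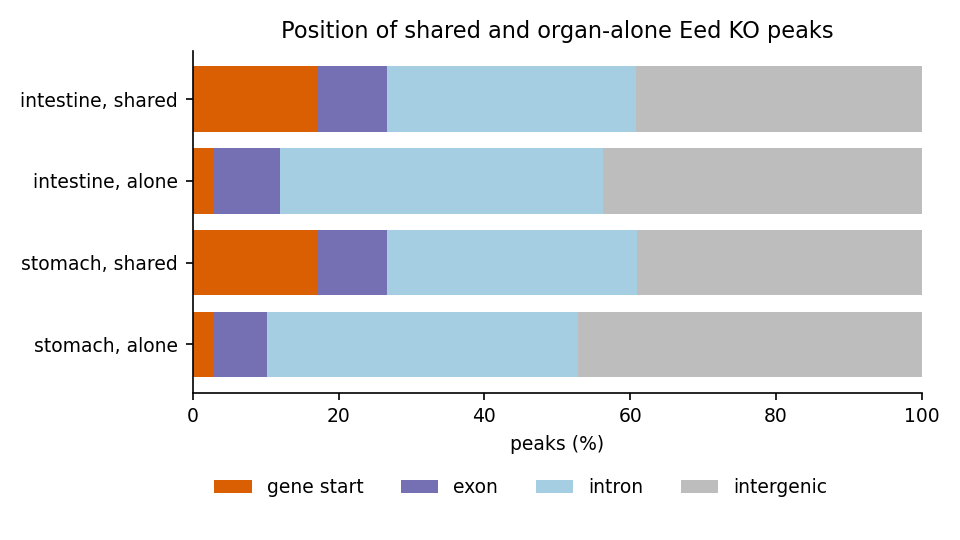
Percent of shared and organ-alone Eed KO peaks (bars) at gene starts, in exons, in introns and in intergenic sequence. Gene starts make up 17.0% and 17.1% of shared peaks but 2.87% and 2.76% of organ-alone peaks.

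The base composition of the 2 organ-alone sets was not the same. In 300-base windows the median GC content was 50.3% for shared intestinal peaks, 48.3% for intestine-alone and 47.0% for stomach-alone peaks. The GC-rich GGGCGG was present in 17.1% and 17.0% of shared windows but in 5.49% and 5.81% of organ-alone ones. Away from gene starts, TAATTA, the core bound by many homeodomain proteins, was present in 7.54% of stomach-alone and 4.43% of intestine-alone windows, with shared peaks between them at 5.63% and 5.51%. GATAA, the core bound by GATA factors, was present in 35.9% and 31.3%, with shared peaks at 31.2% and 31.0%. Among windows with a GC content of 45 to 50%, the shares were 6.50% against 3.73% for TAATTA and 35.0% against 32.2% for GATAA, so the order remained when composition was held near constant. GGAATG had the other order, at 23.2% of intestine-alone and 20.8% of stomach-alone windows. Counted over the whole peak and not the window, 5.27% of intestine-alone and 3.38% of stomach-alone peaks were mostly repeat sequence. Of shared peaks, which were wider, 1.63% and 1.55% were.

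The control lists showed how much of the organ difference without Eed was already there. Of the intestine-alone peaks, 18.1% were also intestine-alone in the controls, 19.3% overlapped peaks of both control organs, 9.79% of the control stomach only and 52.8% (13331) of neither. For stomach-alone peaks the shares were 28.2%, 14.8%, 5.36% and 51.7% (11971). Peaks in neither control list were the weakest, with a median fold enrichment of 2.60 and 2.71. With peaks of a −log10 q of at least 5 in every list, the share that was organ-alone in the controls too was 28.1% in the intestine and 22.4% in the stomach, so the order of the organs turned. Seen from the controls, 28.0% of intestine-alone and 23.3% of stomach-alone control peaks remained organ-alone without Eed, 26.02% and 26.35% had a peak in both Eed KO organs, and 38.3% and 41.6% in neither.

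The strongest organ-alone peaks were mostly narrow. Among the 50 with the highest fold enrichment in each list, the median width was 192 bp (intestine) and 156 bp (stomach), with 33 and 40 of them under 300 bp. The strongest intestine-alone peak, 11.0 fold at chr14:52769600-52769749, lay 4 bp before Trav7d-4, a T cell receptor variable segment, and had a peak in both control lists too. Among the strongest stomach-alone peaks were 1 of 11.0 fold in an intron of Syt14 and 1 of 9.99 fold in an intron of Sp1. Just 70 intestine-alone and 110 stomach-alone peaks exceeded 6 fold, against 18319 and 20269 shared peaks.

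Promoters were mostly open in both organs or in neither. Of 43238 gene starts, 18971 had a peak within 1000 bp in both lists, 831 (1.92%) in the intestinal list alone, 768 (1.78%) in the gastric list alone (3.7% in either list alone) and 22668 in neither. For the 20713 protein-coding genes the numbers were 14130, 292, 269 and 6022, so 2.71% had a peak in 1 list alone. A promoter counted as open in 1 list alone when its window held peaks of that list only, and at 131 (15.8%) and 144 (18.8%) of these promoters such a peak did overlap a peak of the other list that lay outside the window. The organ-alone promoter peaks were weak, with a median fold enrichment of 2.73 and 2.85, while those in both lists had 6.02 and 6.21. Of the 831 intestine-alone promoters, 129 were intestine-alone in the controls and 479 had no control peak, and of the 768 stomach-alone promoters 181 and 416. Among promoters open in both lists, the fold enrichment was over 1.5 times higher in the intestine at 53 (0.279%) and in the stomach at 116 (0.611%).

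RNA was then set beside the promoter peaks. With edgeR's quasi-likelihood test, 237 of 16218 genes tested (1.46%) had higher RNA in the Eed KO intestine and 477 (2.94%) in the Eed KO stomach, at an adjusted p under 0.05 and a fold change over 2 (4.4% in either direction). Of the 237 and 477, the promoter had a peak in both lists for 211 (89.0%) and 438 (91.8%), close to the 88.2% of genes not called. Of 112 genes tested with an intestine-alone promoter peak, 8 had higher RNA in the intestine (7.14%) and 2 in the stomach. Of 116 genes with a stomach-alone peak, 7 had higher RNA in the stomach (6.03%) and 1 in the intestine. Promoter state and RNA thus pointed to the same organ in 15 of the 18 called genes with an organ-alone promoter peak, and in 14 of the 16 whose peak overlapped none of the other list. When spike-in totals served as library sizes, the median log2 fold change moved by −0.24 and 19 and 95 genes were called, and without 1 library in turn 89 to 225 and 200 to 362 were. In bulk RNA, fewer cells of a type and less RNA per cell cannot be told apart, and nothing in the labels says that the 2 libraries of a group came from separate litters.

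Gpbar1, the membrane receptor for bile acids, had a promoter peak in the intestinal list alone (2.95 fold, 1089 bp) and none in either control list. This peak overlapped a gastric peak that ended outside the window. Its RNA was 14.9 and 14.6 CPM in the Eed KO intestines and 2.01 and 2.30 CPM in the stomachs, without overlap (log2 fold change 2.77 ± 0.17 SE, edgeR adjusted p = 0.000456). Tdo2, an enzyme of tryptophan breakdown, had an intestine-alone peak of 3.03 fold, and its RNA was 4.91 and 4.54 CPM against 0.161 and 0.165 CPM (log2 4.83 ± 0.36, edgeR adjusted p = 0.00109). Here both control lists held a peak (3.59 and 2.84 fold). Scn3a, a voltage-gated sodium channel subunit, and Dmp1, a mineralized matrix protein, were also higher in the intestine, by 1.66 and 2.14 on the log2 scale. Neither passed in edgeR without stomach library 1 (adjusted p = 0.0777 and 0.0953) or stomach library 2 (0.0611 and 0.111), nor Dmp1 without intestinal library 2 (0.0654). The exceptions with an intestine-alone peak and higher gastric RNA were Abca8a, a lipid transporter of the ABC family (2.54 fold, log2 fold change −5.38, from 1 and 1 counts against 23 and 71), and Hr, a nuclear receptor corepressor (2.31 fold, −2.24). The Abca8a call was lost in edgeR without intestinal library 1 (adjusted p = 0.0777) or 2 (0.0708) or stomach library 2 (0.0633).

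Amhr2, the receptor for anti-Müllerian hormone, had a stomach-alone promoter peak (3.46 fold, 1259 bp) and none in the controls. Its RNA was 3.19 and 3.81 CPM in the Eed KO stomachs and 0.238 and 0.143 CPM in the intestines (log2 fold change −4.17 ± 0.49 SE, edgeR adjusted p = 0.00430). Dcx, a microtubule-binding protein of migrating neurons, had a stomach-alone peak of 2.89 fold that was also stomach-alone in the controls. Its RNA was 27.3 and 23.6 CPM in the stomachs against 1.45 and 0.856 CPM in the intestines (log2 −4.45 ± 0.30, edgeR adjusted p = 0.000629). Dpt, an extracellular matrix protein, and Gucy2f, a retinal guanylyl cyclase, had higher RNA in the stomach by log2 fold changes of −3.57 and −4.31. So had Fam19a1, a secreted protein, and Hpn, a membrane serine protease, by −1.63 and −1.46. In the control lists the promoter peak was stomach-alone at Gucy2f and Fam19a1 and in both organs at Hpn. At Dpt it was intestine-alone (2.68 fold), although control RNA was 1.54 and 2.91 CPM in the stomachs against 0.0843 and 0.202 CPM in the intestines. The calls of Fam19a1 and Hpn were lost in edgeR without each of the 4 libraries in turn (adjusted p from 0.0730 to 0.0893 and from 0.0789 to 0.185). The exception was Cpa4, a carboxypeptidase, whose promoter window held a peak in the gastric list alone (3.56 fold, and 4.38 fold in the control stomach), overlapping an intestinal peak outside the window, while its RNA was 4.43 and 3.91 CPM in the intestines and 2.23 and 1.65 CPM in the stomachs. That call too was lost without each library in turn (edgeR adjusted p from 0.0681 to 0.199).

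Transcription factors that mark the gastric mesenchyme had nearly equal promoter peaks in both organs. All 14 had a peak in both Eed KO lists, as had 68.2% of protein-coding genes. The log2 ratio of fold enrichment ran from −0.35 to 0.13 with a median of −0.01, beside −0.05 over all gene starts. RNA of 11 of the 14 was higher in the stomach and of none in the intestine, beside 2.94% and 1.46% of all genes tested. Members of this and the other gene lists were chosen with earlier results of these data known. The study itself named Mecom as a stomach gene from its control RNA. The RNA share is therefore no independent result. The median RNA log2 fold change was −1.95 (−0.001 over all genes tested). Of the 11 calls, 7 were kept without each library in turn. The promoter peak of Barx1, the homeobox factor of the stomach mesenchyme, was 2.84 fold in the intestine and 2.79 fold in the stomach. Its RNA was 9.47 and 13.2 CPM against 379 and 310 CPM (log2 −4.93 ± 0.33 SE, edgeR adjusted p = 0.000611), and that call was kept without any 1 library. Mecom, a zinc finger regulator, had promoter peaks of 2.92 and 3.22 fold without Eed and no control peak within 1000 bp of its start, although both peaks overlapped a control stomach peak outside that window. Its RNA was 1.69 and 2.25 CPM in the intestines against 40.5 and 39.4 CPM in the stomachs. A stomach-alone peak of 5.51 fold lay 1078 bp upstream of the Mecom start, just outside the window. It overlapped a peak of the control stomach and none of the control intestine. Pitx1, a homeobox factor known from hindlimb, had peaks of 2.498 and 2.743 fold and an RNA log2 fold change of −2.71. The same held for Lhx9, a LIM homeobox factor (3.71 and 3.91 fold, RNA −4.40).

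All 9 intestinal mesenchyme factors had a promoter peak in both lists, as had 68.2% of protein-coding genes. Among them 2 had higher RNA in the intestine and 1, Evx1, in the stomach, beside 1.46% and 2.94% of all genes tested. Nkx2-3 was the only 1 with an over 1.5-fold unequal promoter peak, at 5.70 fold in the intestine against 3.61 fold in the stomach, beside 6.51 and 2.74 fold in the control lists. Its RNA was 138 and 143 CPM in the intestines against 18.6 and 25.3 CPM in the stomachs (log2 2.68 ± 0.52 SE, edgeR adjusted p = 0.0250). That call was lost with DESeq2 (adjusted p = 0.0622) and in edgeR without stomach library 1 (0.121) or 2 (0.101). Hand1, a basic helix-loop-helix factor, had like peaks of 2.48 and 2.61 fold, and its RNA was 107 and 100 CPM against 5.45 and 10.6 CPM (log2 3.69 ± 0.55, edgeR adjusted p = 0.00962, and 0.0505 without stomach library 1).

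**Figure D3:**
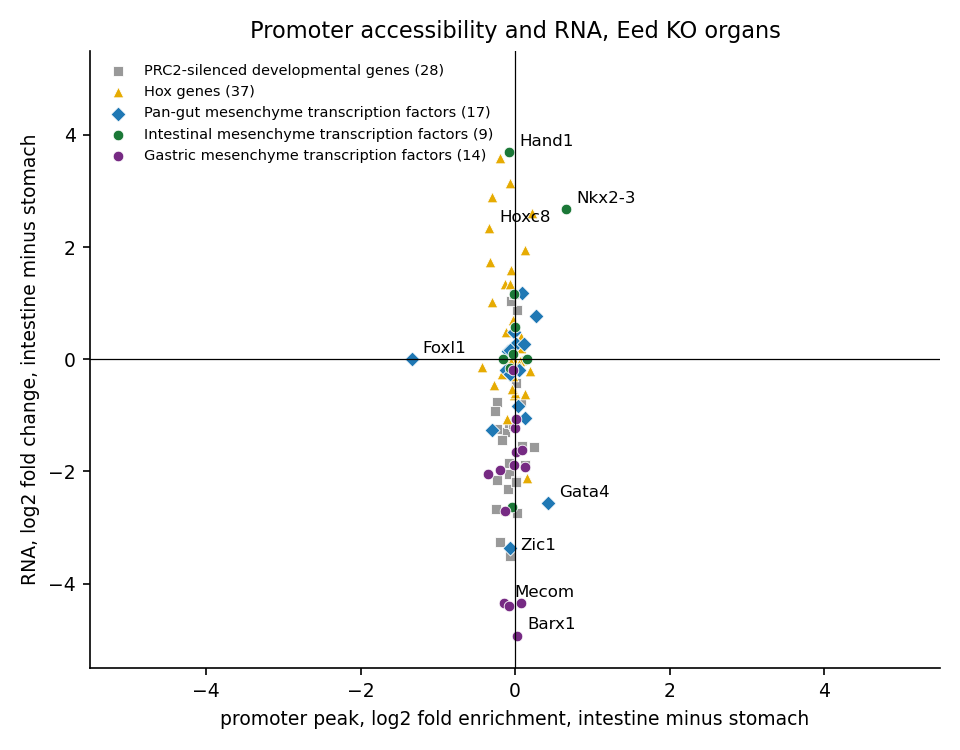
Log2 ratio of promoter fold enrichment (horizontal axis, intestine minus stomach, 1 pooled list per organ) against RNA log2 fold change (vertical axis, 2 libraries per organ) for members of 5 gene lists with a promoter peak in both Eed KO lists, both axes on 1 scale. Points form a narrow upright column around 0, with Barx1 and Mecom low in it and Foxl1 the farthest to the left. Neither list holds a peak under 2 fold, which bounds the ratio of weak peaks such as those of Barx1 and Mecom, unlike the RNA fold change.

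The Hox genes, which pattern the gut from front to back, showed open promoters in both organs. Of 39, Hoxa6 and Hoxb3 had no promoter peak at their outermost start, and none was organ-alone. The other 37 had a promoter peak in both lists, as had 68.2% of protein-coding genes. Their log2 ratio ran from −0.43 to 0.22, and neighbours such as Hoxb7 and Hoxb8 shared a peak. RNA of 10 of 39 was higher in the intestine and of 1, Hoxc13, in the stomach, beside 1.46% and 2.94% of all genes tested. Without each library in turn 4 of the 10 calls were kept (Hoxc6, Hoxc8, Hoxd10 and Hoxd11), and those of Hoxc10, Hoxd1 and Hoxc13 were lost every time. Hoxd10 RNA was 21.9 and 13.9 CPM against 1.10 and 1.87 CPM (log2 3.59 ± 0.42 SE, edgeR adjusted p = 0.00625) with promoter peaks of 5.37 and 6.17 fold, the higher in the organ with less RNA. Hoxc8 likewise had 75.3 and 72.4 CPM against 14.7 and 14.4 CPM with peaks of 3.71 and 4.70 fold. The Hoxa, Hoxb, Hoxc and Hoxd clusters held 23, 32, 29 and 22 intestinal peaks and 23, 30, 26 and 20 gastric ones, of which 1, 3, 5 and 1 were intestine-alone and 1, 1, 3 and 0 stomach-alone.

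The 32 developmental regulators known as PRC2 targets all had promoter peaks in both lists, as had 68.2% of protein-coding genes, with log2 ratios from −0.32 to 0.24. Of the 28 tested for RNA, 9 were higher in the stomach (2.94% of all genes tested) and none in the intestine, and 2 of the 9 calls were kept without each library in turn. Among them was Zic1, a zinc finger factor of the nervous system, at 38.2 and 45.6 CPM against 2.35 and 5.05 CPM (log2 −3.51 ± 0.37 SE). Cdkn2a, a cell cycle inhibitor, was higher in the stomach by a log2 fold change of −1.55 (lost without stomach library 1 or 2, edgeR adjusted p = 0.0591 and 0.0865), while Cdkn2b, its neighbour, at −1.15 did not pass the test (edgeR adjusted p = 0.267). The promoter peaks were like, 6.14 and 5.77 fold for Cdkn2a and 8.77 and 8.91 fold for Cdkn2b.

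Of 17 factors used throughout the gut mesenchyme, all were open in both lists, as were 68.2% of protein-coding genes. RNA was higher in the intestine for 1 (Foxf2) and in the stomach for 4 (Gata4, Gata6, Osr1 and Prrx1), beside 1.46% and 2.94% of all genes tested. The Gata6 call was lost without each library in turn (edgeR adjusted p from 0.0562 to 0.130) and that of Osr1 without intestinal library 2 (0.0539) or stomach library 2 (0.0749). Foxl1, a forkhead factor of the mesenchyme below the epithelium, had the most unequal promoter peak toward the stomach of all gene starts, 2.17 fold in the intestine (2088 bp wide) and 5.48 fold in the stomach (2500 bp). In the controls it was the other way round, 4.47 and 2.04 fold. Its RNA was 15.6 and 22.4 CPM in the intestines and 19.1 and 19.0 CPM in the stomachs, overlapping ranges. Gata4, a zinc finger factor, had the stronger promoter peak in the intestine (3.34 against 2.48 fold) but RNA of 87.2 and 93.8 CPM in the stomachs against 10.2 and 20.5 CPM (log2 −2.56 ± 0.30 SE, edgeR adjusted p = 0.00389).

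Of 19 Wnt ligands, 16 were open in both lists, as were 68.2% of protein-coding genes. Wnt8b was open in the intestine alone and Wnt8a in the stomach alone, and neither of these had more than 0.134 CPM of RNA in any Eed KO library. Over protein-coding genes 2.71% were open in 1 list alone. Among the 13 Wnt ligands tested, Wnt3 and Wnt11 were higher in the stomach and none in the intestine, beside 2.94% and 1.46% of all genes tested. The Wnt3 call was lost without each library in turn (edgeR adjusted p from 0.0705 to 0.150). Wnt11 had promoter peaks of 2.31 and 3.45 fold and RNA of 13.1 and 8.79 CPM against 35.8 and 32.7 CPM (log2 −1.64 ± 0.21 SE, edgeR adjusted p = 0.00557). Wnt2 had peaks of 4.61 and 4.18 fold and its RNA did not pass the test (log2 −1.61, edgeR adjusted p = 0.0893). Wnt antagonists were open in both lists for 10 of 12. Of 10 tested, 2 had higher RNA in the stomach (2.94% of all genes tested), the secreted Wnt-binding proteins Sfrp2 and Sfrp4. All 16 BMP and Hedgehog pathway genes were open in both lists. Among them Bmp5 and Nog had higher RNA in the intestine and Bmp6 in the stomach, beside 1.46% and 2.94% of all genes tested. Of these Wnt antagonist, BMP and Hedgehog calls, that of Bmp5 was kept without each library in turn, and the other 4 were lost without at least 1 library.

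Of genes tested with promoters open in both lists at over 1.5-fold unequal strength, 20 had the stronger peak in the intestine and 39 in the stomach. RNA was higher in the intestine for 3 and in the stomach for 1 of the 20, and for 0 and 4 of the 39. The shares over all genes tested were 1.46% and 2.94%. Most of these genes thus had no RNA call, and of the 8 calls, 7 had the stronger peak in the organ with more RNA. Among the 7 was S100b (RNA log2 −1.49), whose call was lost with DESeq2 (adjusted p = 0.156) and without each library in turn. The calls of Nkx2-3 and Mab21l2, also among the 7, were lost without at least 1 library. Mab21l2, a developmental regulator, had promoter peaks of 5.41 and 3.29 fold, and its RNA was 429 and 424 CPM in the intestines against 9.36 and 15.5 CPM in the stomachs (log2 5.10 ± 0.71 SE, edgeR adjusted p = 0.00758, and 0.0521 without stomach library 1). Aldh1a1, an enzyme of retinoic acid synthesis, had 4.08 and 2.60 fold and RNA of 363 and 535 CPM against 5.66 and 3.62 CPM (log2 6.59 ± 0.37, edgeR adjusted p = 0.000421). Ces2g, a carboxylesterase, had 2.42 and 4.42 fold with an RNA log2 fold change of −5.26, and Dmrt2, a DM domain factor, 5.58 and 8.72 fold with −2.86. Those peaks differed in width too (805 and 296 bp at Ces2g, 2068 and 594 bp at Dmrt2). The exception was Kcnt2, a potassium channel, at 11.9 and 7.43 fold with more RNA in the stomach (−1.15, and edgeR adjusted p = 0.0521 without stomach library 1).

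Organ-alone peaks lay unevenly around genes with unequal RNA. When each peak was given to the nearest gene start within 100000 bp, the 237 genes with higher intestinal RNA had 263 intestine-alone and 179 stomach-alone peaks, and the 477 with higher gastric RNA had 327 and 460. More intestine-alone than stomach-alone peaks were nearest to 35.9% of the first genes, 21.0% of the second and 20.9% of genes not called. More stomach-alone peaks were nearest to 18.6%, 33.3% and 17.3%. Among peaks more than 1000 bp from any gene start, these shares were 33.8%, 20.5% and 20.8%, and 18.6%, 32.7% and 17.1%. With peaks of a −log10 q of at least 5 only, the difference was gone for the intestinal genes (8.02% in both directions) and stood at 8.18% against 4.19% for the gastric genes. Counting only peaks in neither control list, the peaks were 115 and 101 near the intestinal genes and 183 and 261 near the gastric ones. Counting only those organ-alone in the controls as well, they were 63 and 33, and 57 and 132.

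Grouped by the excess of organ-alone peaks, the share of genes with higher gastric RNA was 12.4% of 266 genes with 3 or more extra stomach-alone peaks, 5.88% with 2, 4.51% with 1 and 1.90% of 8750 genes with none of either. For higher intestinal RNA the shares were 4.68% of 385 genes with 3 or more extra intestine-alone peaks, 3.10% with 2, 1.93% with 1 and 0.880% with none. Most genes with an excess were therefore not called. Galnt18, which starts mucin-type glycosylation, had 8 intestine-alone and 1 stomach-alone peak, and Trabd2b, a Wnt-degrading membrane protease, had 3 and 13, the largest excess of any gene start toward the stomach. Neither passed the RNA test (log2 0.13 and −0.60, edgeR adjusted p = 0.766 and 0.387). Genes with 1 or more of each and no excess had 2.73% and 4.57%, both above those of genes with none.

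**Figure D4:**
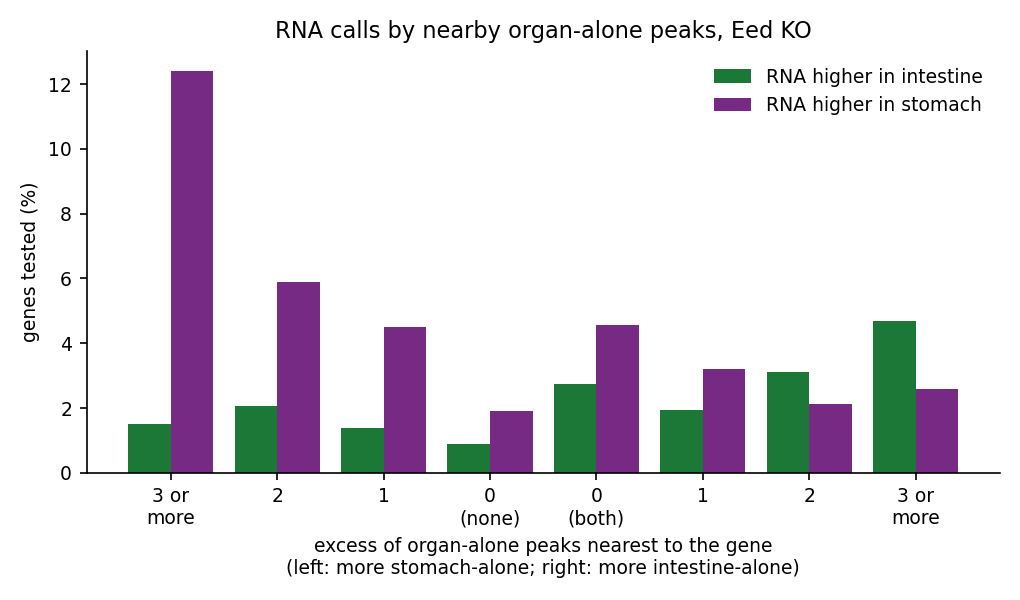
Percent of genes tested with higher RNA in the Eed KO intestine or stomach (bars) by the excess of organ-alone peaks nearest to the gene (horizontal axis, stomach excess on the left, intestinal on the right). The stomach bar reaches 12.4% at a stomach excess of 3 or more and the intestine bar 4.68% at an intestinal excess of 3 or more. At an intestinal excess of 1 the stomach bar is the higher (3.21% against 1.93%).

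Some of these loci can be given peak by peak, counting peaks whose nearest protein-coding start they were within 100000 bp. Those given here with an RNA call all had more organ-alone peaks of the organ with more RNA, which was not general. Counted in the same way, Nkx2-3, with more RNA in the intestine, had 1 intestine-alone and 2 stomach-alone peaks. Mecom, with more RNA in the stomach, had 3 and 2, and Aldh1a1 had 2 and 2. By nearest gene start of any type, 140 genes tested had an intestine excess of 4 or more. RNA was higher in the intestine for 7 of them and in the stomach for 5, such as Lrfn2 (log2 −1.57). Of 87 with such a stomach excess, 8 were higher in the stomach and 1 in the intestine. Tbx5, a T-box factor of heart and forelimb, had 8 stomach-alone peaks (2.72 to 3.72 fold), no intestine-alone peak and 13 shared ones. Only 1 of the 8 had a peak in the control stomach. Its RNA was 8.64 and 11.5 CPM in the stomachs and 2.51 and 4.37 CPM in the intestines (log2 −1.56 ± 0.31 SE, edgeR adjusted p = 0.0370), a call lost without intestinal library 1 (0.0910) or stomach library 1 (0.0775) or 2 (0.191). Hmcn1, an extracellular matrix protein, had 10 stomach-alone and 2 intestine-alone peaks, 6 of the 10 also present in the control stomach. Its RNA log2 fold change was −1.69 (edgeR adjusted p = 0.0285), lost without intestinal library 1 (0.0846) or stomach library 2 (0.127). Pitx1 had 5 stomach-alone peaks, all 5 present in the control stomach, and 1 intestine-alone peak.

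Mab21l2 had 7 intestine-alone peaks (2.51 to 3.40 fold), 6 of them present in the control intestine, 1 stomach-alone and 3 shared peaks. The longest, 2607 bp, lay 76044 bp upstream of the start and holds the window printed above. Ntn1, the guidance cue netrin 1, had 7 intestine-alone and no stomach-alone peaks by nearest protein-coding start, 6 of the 7 present in the control intestine. Counting every peak within 100000 bp of its start, Ntn1 had 9 intestine-alone and 3 stomach-alone peaks. Its RNA log2 fold change was 1.36 (edgeR adjusted p = 0.0316), and the call was lost without stomach library 1 (0.141) or 2 (0.139) and fell to a log2 fold change of 0.84 without intestinal library 2. Gli3, the Hedgehog pathway factor, had 12 intestine-alone and 3 stomach-alone peaks with RNA that did not pass the test (log2 0.27, edgeR adjusted p = 0.562). Pax7, a muscle and neural crest factor, had 8 stomach-alone and 2 intestine-alone peaks, and its RNA did not exceed 0.247 CPM in any Eed KO library. Barx1, with the most unequal RNA among the gastric factors, had 3 stomach-alone and 2 intestine-alone peaks beside 16 shared ones.

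**Figure D5:**
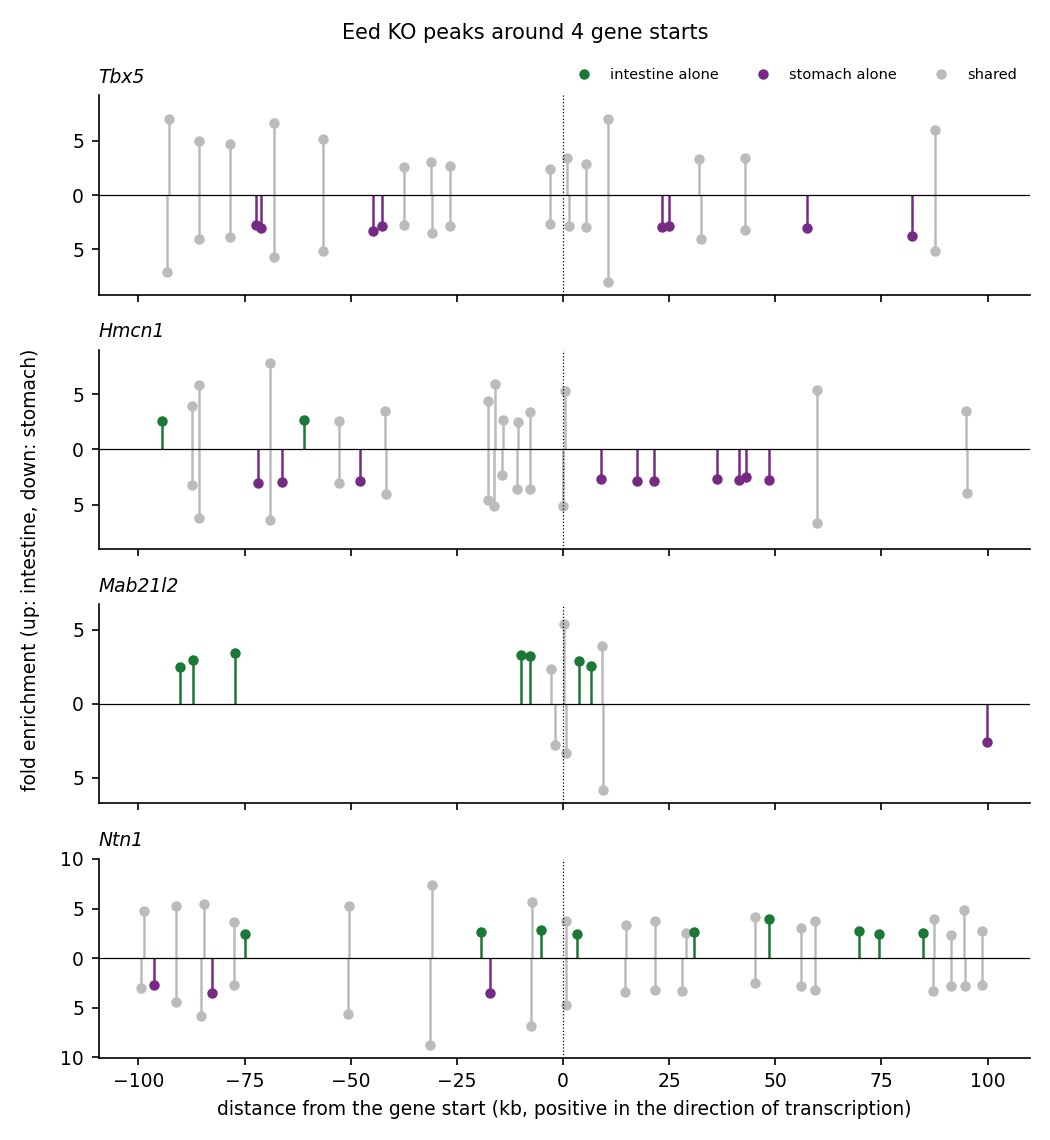
Eed KO peaks around the starts of Tbx5, Hmcn1, Mab21l2 and Ntn1, as vertical lines at their distance from the start (horizontal axis, kb) with a height of their fold enrichment, intestine upward and stomach downward, shared peaks in grey. All 8 coloured peaks at Tbx5 are stomach-alone, and 7 of 8 at Mab21l2 are intestine-alone. At Hmcn1 10 are stomach-alone and 2 intestine-alone, and at Ntn1 9 are intestine-alone and 3 stomach-alone.

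Markers of smooth muscle and of other cell types were read in the same way. Smooth muscle markers were open in both lists at 7 of 7 promoters, as were 68.2% of protein-coding genes. RNA of 4 of the 7 (Tagln, Cnn1, Des and Actg2) was higher in the intestine, beside 1.46% of all genes tested. The summed level over the 7 was 3321 to 5670 CPM in the intestines against 1884 to 2144 CPM in the stomachs. Each of the 4 calls was lost without stomach library 1 (edgeR adjusted p from 0.0549 to 0.143), and Tagln, Cnn1 and Actg2 also without stomach library 2 or intestinal library 2. The summed level of 13 epithelial markers was 74.6 to 82.6 CPM in the intestines and 103 to 142 CPM in the stomachs, of 9 endothelial markers 58.1 to 59.3 and 36.4 to 56.7 CPM, of 9 enteric neural crest markers 260 to 299 and 164 to 174 CPM (most of it Ednrb and Hand2), and of 8 blood and macrophage markers 2.23 to 4.99 and 2.63 to 4.80 CPM, with Ptprc at 0 in 3 of 4 libraries. The epithelial Sox2 and Foxa1 and the endothelial Erg had higher RNA in the stomach, beside 2.94% of all genes tested. So had 1 of 5 mesothelium markers, whose summed level was 304 to 333 and 311 to 394 CPM. Each of these calls was lost without at least 1 library. No neural crest or blood marker was called. Promoter peaks in 1 list alone were found at Vil1 and Spi1 in the intestine and at Krt19, Emcn and Csf1r in the stomach, each under 3 fold. The Csf1r peak overlapped an intestinal peak outside the window and peaks of both control organs. What part these cells had in the peaks and the RNA was not tested.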

How the data were processed

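Per the labels and methods, the authors trimmed ATAC-seq reads (Trimmomatic 0.32), aligned them to mm10 (BWA 0.7.8), pooled replicates and called peaks with MACS2 2.1.2. The deposited peak lists give fold enrichment (a ratio to local background) and −log10 q per peak, with 19.0% of intestinal and 14.6% of gastric Eed KO peaks under the −log10 q of 2 that the methods state. The deposited RNA counts per gene came from STAR 2.5.1b and featureCounts 1.5.0 and carry no strand or length column.

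Peaks were overlapped with bedtools 2.31.1 (at least 1 bp). Gene starts were taken from exon coordinates in deposited adult count tables, and sequences from GRCm38 and RefSeq (18146 of 27025 promoter entries matched a gene start). RNA was tested with edgeR 4.0.16 (R 4.3.3, quasi-likelihood F-test, TMM, Benjamini-Hochberg over 16218 genes) in 1 fit of the 8 embryonic libraries, without a replicate block, and checked on simulated data. Alternatives were DESeq2 1.42.0, no filter, spike-in scaling, a replicate block, each library left out, and other peak cutoffs and overlaps.

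The members and gene lists were chosen with earlier results of these data known. Named genes were the 8 strongest organ-alone peaks per organ, the 6 genes with the largest excess, up to 8 genes per organ with an organ-alone promoter peak and an RNA call, list members with organ-alone or the most unequal promoter peaks, and 11 regulators. The genes shown peak by peak, those in the RNA call lists and the nearest protein-coding gene were chosen after values were seen. Adult libraries were used for coordinates only. Some items that the rule named are not reported here.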

Additional observations from a re-analysis of the deposited data

How the results depend on the processing

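Peak shares depended on the cutoff and the overlap. With a −log10 q of at least 5, 85.8% of intestinal and 81.8% of gastric Eed KO peaks were shared, and with at least 2, 83.1% of intestinal ones. With 50% of each peak covered, the shares were 60.6% and 61.8%, with the 50000 surest peaks per list 84.8% and 84.7%, and with peaks within 250 bp counted, 80.4% of gastric ones. Shared peaks at gene starts were 26.1% of both lists within 5000 bp, 13.8% and 13.9% at protein-coding starts and 27.8% in both lists at a −log10 q of at least 5, while organ-alone peaks were 11.6% and 11.0%, 1.07% and 1.03%, and 3.34% and 5.24%. At that cutoff intestine-alone peaks were intestine-alone in the controls in 28.1%, in both control organs in 24.5%, in the stomach only in 5.10% and in neither in 42.4%, and stomach-alone peaks 22.4%, 17.1%, 6.71% (intestine only) and 53.8%. Intestine-alone promoters numbered 1267 within 5000 bp, 367 at a −log10 q of at least 5 and 292 for protein-coding genes, and stomach-alone ones 269 for protein-coding genes. The protein-coding alternatives and those on organ-alone peaks near RNA calls were chosen after seeing the data. Of genes called by RNA, those with more organ-alone peaks of their own and of the other organ at a −log10 q of at least 5 were 8.02% and 8.02% for the intestine and 8.18% and 4.19% for the stomach, 41.0% and 25.3% for the stomach with the nearest protein-coding gene, and 12.6% for the other organ of stomach genes with spike-in totals.

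RNA calls depended on scaling and on single libraries. Spike-in totals as library sizes gave 19 intestinal and 95 gastric genes, and leaving out 1 library gave 89 to 225 and 200 to 362. Of 93 named RNA calls, 88 were kept with DESeq2, 92 without a filter, 20 with spike-in totals, and 62, 54, 46 and 40 without intestinal library 1, 2, stomach library 1 and 2, and none turned direction. The replicate number as a block gave 357 and 774 genes and kept all 93. Deviations of same-numbered Eed KO libraries correlated at 0.63, and of controls at 0.26, over 2 pairs each, and the labels do not say what a number shares. The cause was not tested for any of these. Peak lists carry no depth, so none of the peak shares has a counting error.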
